A study of Homo sapiens with 4 samples.

Results

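BCAR1 encodes p130Cas, the founding member of the CAS family of docking proteins. The genes described here are BCAR1, its 3 paralogs NEDD9, CASS4 and EFS, the adapters CRK and CRKL that bind phosphorylated CAS proteins, the kinases PTK2 (FAK) and PTK2B (PYK2), the scaffold paxillin (PXN) and the CAS-binding protein BCAR3, 10 of the 58037 genes in the table. The group was chosen on a measured value, the fall of BCAR1 in this same comparison, so the change of BCAR1 is given as a description without a test. The other 9 genes were taken in for their relation to BCAR1. Falls were ranked among 1111 genes that were called lower, had a mean of at least 5 CPM and did not overlap between conditions. CPM are counts scaled to library size by TMM normalization. The call served here only as a filter of the ranking and is no test of BCAR1. BCAR1 had the 4th largest fall (log2 fold change -3.06), after HOXB8 (-4.15), LINC01929 (-4.12) and HOXB-AS3 (-3.40). ENSG00000253508 (-3.06) and RTL3 (-3.05) came just after it.

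Gene counts came from RNA-Seq of OCI-AML3, an established line of human AML that carries heterozygous mutations of NPM1 and DNMT3A and a homozygous NRAS mutation. All cells were grown, by the labels, in alpha-MEM with 20% FBS (the methods of the study name RPMI) and were harvested 3 days (72 hours) after transfection. There were 2 libraries with sgRNA Ctrl, the control guide that the labels call sgNeg, and 2 with sgNPM1A, the guide directed at the mutant allele (mtNPM1 KO). The legend of the study calls them biological replicates and nothing says more of how they were separated, so the p-values measure the spread between these libraries only, which may be technical.

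The libraries held 25069484, 25587774, 28276391 and 28209174 counts, in the order sgRNA Ctrl 1 and 2, sgNPM1A 1 and 2, and 3 counts, taken as the floor, correspond to between 0.108 and 0.118 CPM. This floor covers counting error only. NPM1, the targeted gene, measured 1319 and 1385 CPM in the sgRNA Ctrl libraries and 1189 and 1132 CPM in the sgNPM1A libraries. Its difference of -0.22 on the log2 scale (edgeR adjusted p = 0.0360) is under the fold threshold for a call, 0.32 on the log2 scale in either direction, and these gene counts add the mutant and wild-type alleles together. Of the myeloid markers, all 6 of 6 were detected, with a summed level of 809 to 852 CPM in the sgRNA Ctrl libraries and 1085 to 1086 CPM in the sgNPM1A libraries. SPI1 held the largest part of this sum, with 452 and 495 CPM in the control and 676 and 643 CPM after mtNPM1 KO. The log2 fold changes differed by gene: -0.05 (PTPRC), 0.06 (CD33), 0.48 (SPI1), 0.49 (ANPEP), 1.22 (CSF1R) and 1.77 (MPO). The T cell markers CD3D, CD3E and CD2, the B cell marker MS4A1, the epithelial marker EPCAM and the endothelial marker CDH5 had 0 counts in every library. The 3 matched fibroblast or endothelial markers summed to between 27.6 and 28.8 CPM with sgRNA Ctrl and between 9.40 and 13.1 CPM with sgNPM1A, almost all of it COL1A2, a collagen chain, whose log2 fold change was -1.33 (adjusted p = 3.11e-05). PECAM1, planned for the same marker set, was not matched to a single gene and is not in that sum. The part of these marker shifts in the values that follow was not tested.

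CAS proteins have no catalytic activity of their own. At integrin adhesion sites they bind FAK or PYK2 through an SH3 domain, and Src-family kinases phosphorylate the many tyrosines of their substrate domain. The phosphorylated tyrosines recruit CRK and CRKL, whose SH3 domains bring in guanine nucleotide exchange factors for RAC and RAP1, and this chain is known for its role in cell spreading and migration. Paxillin is a second platform at the same sites, and BCAR3 binds the C-terminal region of CAS proteins. In blood cells NEDD9 (also called HEF1 or CAS-L) and PYK2 are known as the main hematopoietic forms of CAS and FAK.

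BCAR1 (ENSG00000050820, chromosome 16, 75228181 to 75268007 on GRCh38, minus strand) had 5125 and 5099 counts in the sgRNA Ctrl libraries, and 796 and 532 counts in the sgNPM1A libraries. On the CPM scale these are 202 and 197 with sgRNA Ctrl, and 28.6 and 19.2 with sgNPM1A. The 2 conditions are far apart, and the sgRNA Ctrl libraries differ little from each other. The mean was 199 ± 3.35 CPM (SD, n = 2) in the control and 23.9 ± 6.65 CPM (SD, n = 2) after mtNPM1 KO. This is an 8.35-fold lower level (log2 fold change -3.06). In bulk counts, fewer cells with a transcript and less transcript per cell cannot be told apart. Transcript was still present after 3 days at a level far above the floor.

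The sgNPM1A libraries were not equal for BCAR1. The second lay 0.57 below the first on the log2 scale, and of 7036 genes with a mean above 20 CPM 9 had a larger difference of these 2 libraries, which is 0.128%. Without sgNPM1A replicate 1 the log2 fold change of BCAR1 was -3.38, and without sgNPM1A replicate 2 it was -2.80. Other strongly lower genes showed the same order. In the 20 largest falls, a set chosen after their values were seen and taking in BCAR1, the level was lower in sgNPM1A 2 than in sgNPM1A 1 for 20 of 20 genes, with a median difference of -0.59, against a median of 0.00 over all tested genes. In the other expressed genes of the group the difference between these libraries ran from -0.27 (BCAR3) to 0.16 (PXN).

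The BCAR1 count could also take in reads from near copies. Of the 50-base words of its transcripts, 7.89% occur in another gene, namely in the pseudogenes BCAR1P1 and BCAR1P2, which had 0 counts, and in ENSG00000280152, a gene on the same strand that covers 8.57% of the exon bases of BCAR1. That overlapping gene had 35 and 31 counts with sgRNA Ctrl, and 4 and 5 counts with sgNPM1A.

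Windows of 300 bases around the transcription start, from 250 bases before to 50 after it, were taken from RefSeq on GRCh38.p14 for 7 of the 10 genes, several where a gene has several starts. Windows of CASS4, PTK2 and PTK2B were not used here. The gene counts add all starts of a gene together, so they do not tell which start was used. BCAR1 has 5 windows. The window at chr16:75265958-75266257 (minus strand) is the richest of them in CpG, with 37 CpG and 74.3% G or C, against medians of 14 CpG and 58.7% over 35116 windows. The window at chr16:75266856-75267155 (minus strand) has 8 CpG and 64.7% G or C. The NEDD9 window at chr6:11382299-11382598 (minus strand) is shown beside them because NEDD9 is the paralog whose level differed least between the conditions, and it holds 6 CpG with 42% G or C. It is the poorest in CpG of 3 NEDD9 windows, and the richest, at chr6:11232619-11232918, has 13 CpG and 52.7% G or C. They are printed 5′ to 3′ on the strand of the gene, with matches to searched motifs in capitals.
BCAR1 window with most CpG: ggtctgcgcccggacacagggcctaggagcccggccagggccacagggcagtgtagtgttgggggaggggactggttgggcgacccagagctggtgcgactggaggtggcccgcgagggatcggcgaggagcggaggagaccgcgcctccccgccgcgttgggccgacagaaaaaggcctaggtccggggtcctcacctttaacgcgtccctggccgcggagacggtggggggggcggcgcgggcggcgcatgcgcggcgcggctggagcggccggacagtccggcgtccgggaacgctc
BCAR1 window with a PU.1 word: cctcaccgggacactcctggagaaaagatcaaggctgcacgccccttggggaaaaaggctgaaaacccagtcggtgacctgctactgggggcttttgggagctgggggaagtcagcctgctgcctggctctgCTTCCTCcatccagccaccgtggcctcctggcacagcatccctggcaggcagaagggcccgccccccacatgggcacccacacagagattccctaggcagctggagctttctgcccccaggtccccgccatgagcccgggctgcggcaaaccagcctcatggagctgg
NEDD9 window with a MEIS word: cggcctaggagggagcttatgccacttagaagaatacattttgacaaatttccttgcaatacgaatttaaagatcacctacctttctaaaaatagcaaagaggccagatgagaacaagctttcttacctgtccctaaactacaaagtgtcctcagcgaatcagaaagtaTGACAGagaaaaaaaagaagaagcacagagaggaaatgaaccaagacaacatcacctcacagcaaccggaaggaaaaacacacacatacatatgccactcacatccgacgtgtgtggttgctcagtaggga

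The words searched on both strands of these windows were TGACAG for MEIS, TGATTTAT for HOX9-PBX, CACGTG for the MYC E-box and GAGGAAG for PU.1. The first BCAR1 window holds none of them. The other BCAR1 window holds GAGGAAG on the opposite strand, so that it reads CTTCCTC here, and the NEDD9 window holds TGACAG. The BCAR1 windows not printed hold none of these words, nor does the CpG-richest NEDD9 window. The only other matches in windows of these genes are TGACAG in an overlapping NEDD9 window and in a BCAR3 window. Over all windows of this length, TGACAG is in 15.8%, GAGGAAG in 13.6%, CACGTG in 7.26% and TGATTTAT in 0.846%. A match is a run of letters and says nothing of binding. The CRK window (40 CpG), the CRKL window (39 CpG), the EFS window (33 CpG) and a PXN window (50 CpG) are CpG-rich as well. EFS, which had no count, is among them.

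Of the paralogs of BCAR1, CASS4 was called lower, NEDD9 did not pass the test and EFS was not detected. NEDD9 (ENSG00000111859, chromosome 6, 11183298 to 11382348) measured 36.2 and 28.2 CPM with sgRNA Ctrl, and 27.6 and 29.2 CPM with sgNPM1A, from 730 to 919 counts. The conditions overlap, because the second sgRNA Ctrl library sits among the sgNPM1A libraries. Its log2 fold change of -0.18 (SE 0.11, 95% interval -0.43 to 0.07) did not pass in edgeR's quasi-likelihood test with Benjamini-Hochberg adjustment over 15718 genes (adjusted p = 0.282). The value rests on 1 library. It was 0.01 without sgRNA Ctrl replicate 1 and -0.35 without sgRNA Ctrl replicate 2, where it passed (edgeR adjusted p = 0.0194).

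CASS4 (chromosome 20, 56412036 to 56460382), the most recently described CAS protein, was rare, with 97 and 72 counts in the sgRNA Ctrl libraries and 38 and 40 counts in the sgNPM1A libraries. The levels were 3.82 and 2.78 CPM in the control, and 1.36 and 1.44 CPM after mtNPM1 KO, with both sgNPM1A libraries below both controls. CASS4 fell 2.35-fold (log2 fold change -1.23, SE 0.23, 95% interval -1.74 to -0.72, edgeR adjusted p = 0.00262). EFS (chromosome 14, 23356406 to 23365172), the CAS protein known from embryonic tissue and T cells, had 0 counts in all 4 libraries, which allows a level of up to the floor of 3 counts. It was not tested.

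Levels of different genes were compared per length, as CPM per kb of the union of exons. The summed level of the CAS family was 26.2 and 24.7 CPM per kb with sgRNA Ctrl, and 6.03 and 5.19 CPM per kb with sgNPM1A. BCAR1 made up 83.8% and 86.7% of the family in the control, and 51.5% and 40.1% after mtNPM1 KO. The share of NEDD9 was 13.3% and 11.0% in the control against 44.1% and 54.4% in the sgNPM1A libraries, while that of CASS4 was 2.88% and 2.22% against 4.46% and 5.47%. The larger share of NEDD9 came without a higher level of NEDD9, and the family without BCAR1 summed to 4.24 and 3.27 CPM per kb in the control and to 2.93 and 3.11 in the sgNPM1A libraries. BCAR1 and NEDD9 changed order in the second sgNPM1A library alone, with BCAR1 at 3.10 and 2.08 CPM per kb and NEDD9 at 2.66 and 2.82. With the longest coding transcript as the length, an alternative added after the data were seen, the BCAR1 share was 84.7% and 87.5% in the control and 52.1% and 40.8% after mtNPM1 KO.

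**Figure D1:**
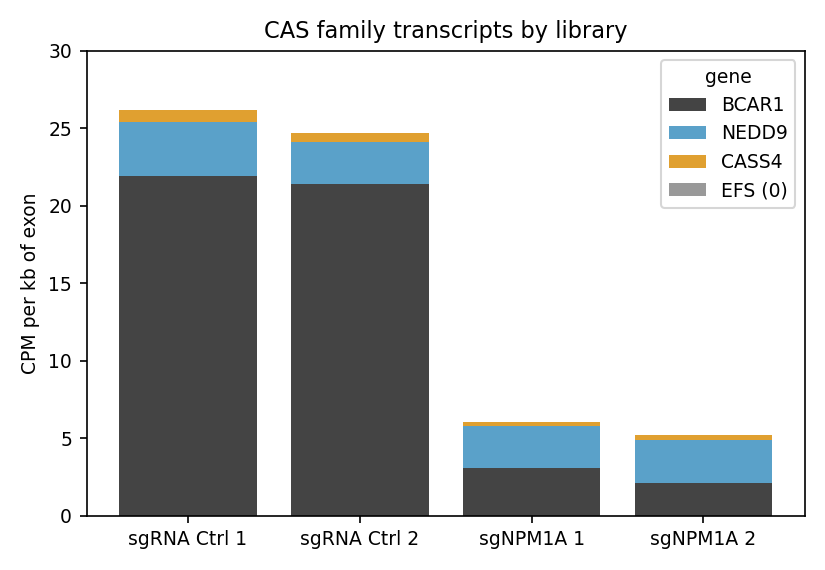
Levels of the CAS family genes in CPM per kb of exon, stacked for each of the 4 libraries. The bars drop from 26.2 and 24.7 with sgRNA Ctrl to 6.03 and 5.19 with sgNPM1A, and almost all of the drop is in the BCAR1 segment.

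The CRK adapters were abundant and lower after mtNPM1 KO. CRK (chromosome 17, 1420693 to 1456232), with its SH2 and SH3 domains, measured 61.7 and 54.9 CPM in the sgRNA Ctrl libraries, and 42.0 and 42.6 CPM in the sgNPM1A libraries. The sgNPM1A libraries nearly coincide, below both controls. CRK fell by 0.46 on the log2 scale (SE 0.08, 95% interval -0.65 to -0.28, edgeR adjusted p = 0.00184). CRKL (chromosome 22, 20917407 to 20953747), the related adapter known as a substrate of BCR-ABL in leukemia, measured 154 and 130 CPM in the control, and 111 and 116 CPM after mtNPM1 KO. The conditions do not overlap, but the second sgRNA Ctrl library is closer to the sgNPM1A libraries than to the first. CRKL fell by 0.32 on the log2 scale (SE 0.08, 95% interval -0.51 to -0.14, edgeR adjusted p = 0.0147), at the very edge of the fold threshold. The CRKL call was lost without sgRNA Ctrl replicate 1 (-0.20, adjusted p = 0.0576) and without sgNPM1A replicate 1 (-0.30, adjusted p = 0.0936). Per kb, CRK made up 34.6% and 35.7% of the pair in the control, and 33.2% and 32.6% after mtNPM1 KO.

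Of the FAK family kinases, PTK2 fell and PTK2B did not pass the test. PTK2 (chromosome 8, 140657900 to 141002079), which encodes FAK, measured 17.9 and 16.8 CPM with sgRNA Ctrl, and 9.40 and 10.1 CPM with sgNPM1A. The replicates are close and the conditions well separated. PTK2 fell 1.78-fold (log2 fold change -0.83, SE 0.11, 95% interval -1.07 to -0.59, edgeR adjusted p = 0.000236). PTK2B (chromosome 8, 27310506 to 27459391), which encodes PYK2, measured 566 and 599 CPM in the control, and 604 and 587 CPM in the sgNPM1A libraries. The conditions overlap, and the log2 fold change was 0.03 (SE 0.07, 95% interval -0.12 to 0.18, edgeR adjusted p = 0.767). PTK2 was a small share of the pair per kb, 1.78% and 1.58% in the control and 0.882% and 0.976% after mtNPM1 KO, and the sum of the pair ran from 73.4 to 77.6 CPM per kb over the libraries. The 95% intervals of the 2 genes do not overlap, and the difference between their changes was not tested.

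PXN and BCAR3 complete the group. PXN (chromosome 12, 120210447 to 120265730) measured 16.2 and 15.7 CPM with sgRNA Ctrl, and 10.8 and 12.1 CPM with sgNPM1A, without overlap. PXN fell by 0.48 on the log2 scale (SE 0.11, 95% interval -0.72 to -0.23, edgeR adjusted p = 0.00871), a call that was lost without sgNPM1A replicate 1 (-0.40, adjusted p = 0.0940). The antisense gene PXN-AS1 covers 23.7% of the exon bases of PXN, and its own counts, 54 and 72 in the control and 62 and 60 after mtNPM1 KO, did not pass the test (log2 fold change -0.16, edgeR adjusted p = 0.630). The strand setting of the counting is not given in the sources used here, so reads over the shared bases cannot be told apart. BCAR3 (chromosome 1, 93561741 to 93848151) was close to the limit of this depth, with 20 and 17 counts in the control and 15 and 12 counts in the sgNPM1A libraries. Its log2 fold change of -0.57 (SE 0.37, 95% interval -1.38 to 0.24) did not pass (edgeR adjusted p = 0.294), and the interval takes in both no change and a fall of the size of CASS4.

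**Figure D2:**
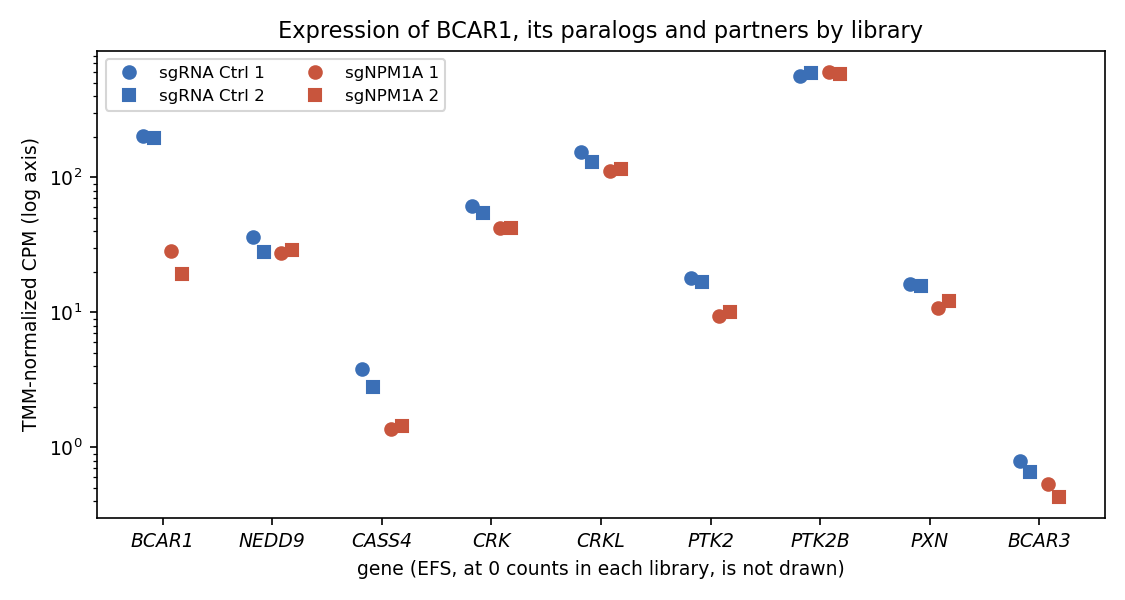
Level of the 9 detected genes in TMM-normalized CPM on a log axis, with sgRNA Ctrl in blue, sgNPM1A in red, circles for replicate 1 and squares for replicate 2. BCAR1 shows the widest separation, from 202 and 197 to 28.6 and 19.2 CPM, PTK2B and NEDD9 show overlap, and EFS, at 0 counts, is not drawn.

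**Figure D3:**
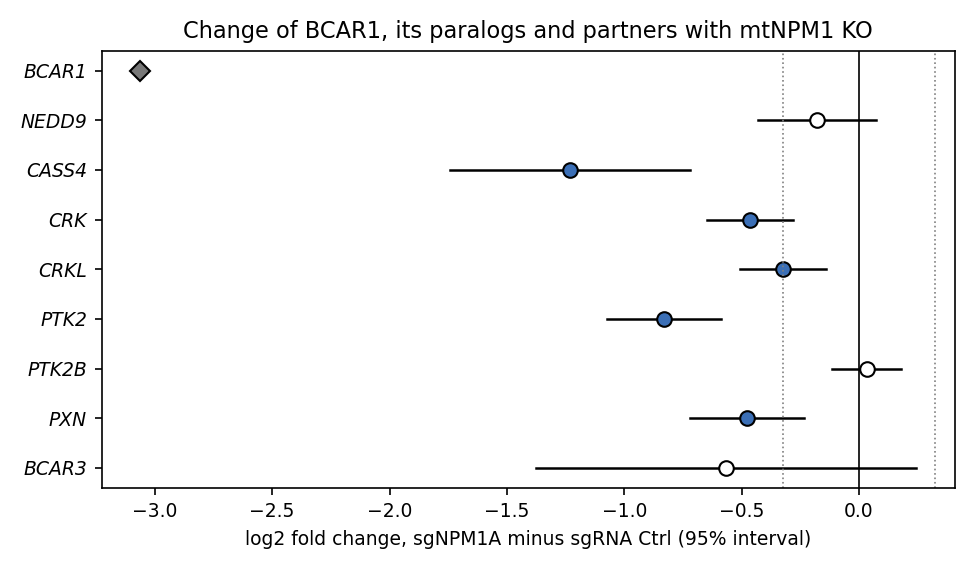
Log2 fold change, sgNPM1A minus sgRNA Ctrl, for BCAR1 and the 8 other tested genes, with 95% intervals for all but BCAR1, drawn as a grey diamond without a test. Blue points passed the thresholds in edgeR, open points did not, the dotted lines mark the fold threshold, and the fall of BCAR1 (-3.06) lies far to the left of the next, CASS4 (-1.23).

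Of the 8 tested genes other than BCAR1, 5 were called lower (CASS4, CRK, CRKL, PTK2 and PXN) and 0 higher, where 10.3% of all tested genes were called lower and 10.5% higher. The count of genes called higher was 0 in edgeR, in DESeq2, in limma-trend and at an unadjusted p under 0.05. Both sgNPM1A libraries lay below both sgRNA Ctrl libraries in 6 of the 8 genes and above in 0, where 31.7% of all tested genes lay below and 31.4% above. The median log2 fold change of the 8 genes was -0.47, against 0.00 over all tested genes. Without sgNPM1A replicate 1 the number called lower was 3, because CRKL and PXN no longer passed. With 2 libraries a condition, exact permutation cannot reach a p below 0.333, so no such p is given.

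Per kb, the order of the levels in the sgRNA Ctrl libraries was PTK2B (72.1 and 76.2), CRKL (28.7 and 24.3), BCAR1 (21.9 and 21.4), CRK (15.2 and 13.5), NEDD9 (3.49 and 2.72), PXN (2.18 and 2.10), PTK2 (1.30 and 1.22), CASS4 (0.753 and 0.548) and BCAR3 (0.114 and 0.0949), all in CPM per kb. Neighbours in that order did not overlap. In the sgNPM1A libraries BCAR1 moved from the third place to below CRK, where its level and that of NEDD9 overlapped, and the other genes kept their order. These orders hold for the union of exons as the length (9199 bases for BCAR1, 13742 for PTK2). The longest coding transcripts have 4085 bases for BCAR1, 5342 for CRKL, 5136 for PTK2 and 5214 for PXN. With these as the length, BCAR1 would stand above CRKL and PTK2 above PXN in the control.

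Other genes of the same network, 56 genes in 6 lists, held calls in both directions. Of these, 49 were tested, 11 were called higher, 6 lower and 32 neither, with a median log2 fold change of 0.04, where 10.5% of all tested genes were called higher and 10.3% lower. The share of the lists called lower is near that background. The lists were drawn up with earlier results of these data known.

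The Src-family kinases, which phosphorylate CAS proteins and FAK, held calls in both directions. Of 7 genes 5 were tested, 2 were called higher and 2 lower, with a median of 0.26, beside the same background of 10.5% higher and 10.3% lower. SRC fell from 58.3 and 57.1 CPM to 34.7 and 33.0 CPM (log2 fold change -0.77, SE 0.08, edgeR adjusted p = 3.03e-05), and YES1 fell from 22.2 and 20.0 CPM to 13.5 and 14.01 CPM (-0.62, adjusted p = 0.00117). FGR, a Src-family kinase of myeloid cells, rose from 1.14 and 1.16 CPM to 8.57 and 8.21 CPM (log2 fold change 2.86, SE 0.18, adjusted p = 8.87e-07). FYN rose from 9.44 and 10.7 CPM to 18.0 and 19.2 CPM (0.89, adjusted p = 0.000162). LYN, a Src-family kinase of blood cells, measured 0.26 on the log2 scale (adjusted p = 0.0483), under the fold threshold, and was called higher without sgRNA Ctrl replicate 1 (0.36, adjusted p = 0.0219) and without sgNPM1A replicate 1 (0.38, adjusted p = 0.0169). LCK had 0 counts and BLK at most 1 count in any library.

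The kinases and phosphatases that act on CAS, FAK or Src (CSK, PTPN12, PTPN1, PTPN11, PTPN6 and PTPRA) had 0 of 6 genes called by edgeR, DESeq2 or limma-trend and 1 at an unadjusted edgeR p under 0.05, with a median log2 fold change of 0.01. Over all tested genes edgeR called 10.5% higher and 10.3% lower. PTPN1 passed without sgRNA Ctrl replicate 1 (0.38, adjusted p = 0.0107). CSK and PTPN12 are negative regulators of this signaling, the first of Src-family kinases and the second of CAS proteins. Among the CRK effectors 12 of 13 genes were tested, and 1 was called, as higher, beside the same background of 10.5% higher and 10.3% lower. ELMO1, which binds DOCK proteins to activate RAC, rose from 12.7 and 11.5 CPM to 19.8 and 21.3 CPM (log2 fold change 0.76, adjusted p = 0.000338), and DOCK1, its partner in adherent cells, had at most 1 count in any library. The median of the list was 0.01, and SOS1 was called lower without sgRNA Ctrl replicate 2 (-0.41, adjusted p = 0.0180).

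The paralogs of BCAR3 gave values from few counts. SH2D3C, a hematopoietic member of the NSP family, rose from 10 and 14 counts to 34 and 40 counts (log2 fold change 1.499, SE 0.33, adjusted p = 0.00666), and SH2D3A did not pass (-0.31, adjusted p = 0.412). Among the 7 paxillin paralogs and partners 2 were called lower and 1 higher, with a median of -0.14. Over all tested genes 10.3% were called lower and 10.5% higher. TGFB1I1 (Hic-5) fell from 13.0 and 15.3 CPM to 8.18 and 5.80 CPM (-1.02, SE 0.16, adjusted p = 0.000825). LPXN (leupaxin), the paxillin paralog known from blood cells, fell from 183 and 204 CPM to 130 and 127 CPM (-0.59, SE 0.07, adjusted p = 0.000117). GIT2, which links paxillin to ARF and PAK signaling, rose from 15.6 and 14.8 CPM to 20.4 and 23.3 CPM (0.53, adjusted p = 0.00367).

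The integrin-actin linkers had 17 of 21 genes tested, with 6 called higher and 2 lower and a median of 0.07. Over all tested genes 10.5% were called higher and 10.3% lower, so the count of lower linkers is near the background. Zyxin (ZYX), an actin-regulating LIM protein, rose from 160.0 and 153 CPM to 330.1 and 365 CPM (log2 fold change 1.15, SE 0.07, adjusted p = 8.49e-07). Tensin 1 (TNS1) rose from 27.8 and 22.4 CPM to 46.9 and 52.2 CPM (0.98, adjusted p = 5.67e-05). TNS2 was called lower, from 3.46 and 4.05 CPM to 2.08 and 2.70 CPM (-0.65, edgeR adjusted p = 0.0339), a call lost without sgRNA Ctrl replicate 2 (adjusted p = 0.130), without sgNPM1A replicate 1 (0.258) and in DESeq2 (0.137). The other calls, named after their values were seen, were VCL (0.71), VASP (0.42), PARVG (0.38) and LIMS1 (0.36) as higher and FERMT2 (-1.59, from 24 and 21 counts to 8 and 8) as lower. Of these, PARVG was not called without sgRNA Ctrl replicate 1 (adjusted p = 0.0177, under the fold threshold) or without sgNPM1A replicate 1 (0.0701), LIMS1 without sgNPM1A replicate 2 (0.118), and FERMT2 without sgRNA Ctrl replicate 1 (0.0580) or in DESeq2 (0.0962). TNS3 was called lower without sgRNA Ctrl replicate 2 (-0.37, adjusted p = 0.00726) and FERMT3 without sgNPM1A replicate 2 (-0.34, adjusted p = 0.0440).

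**Figure D4:**
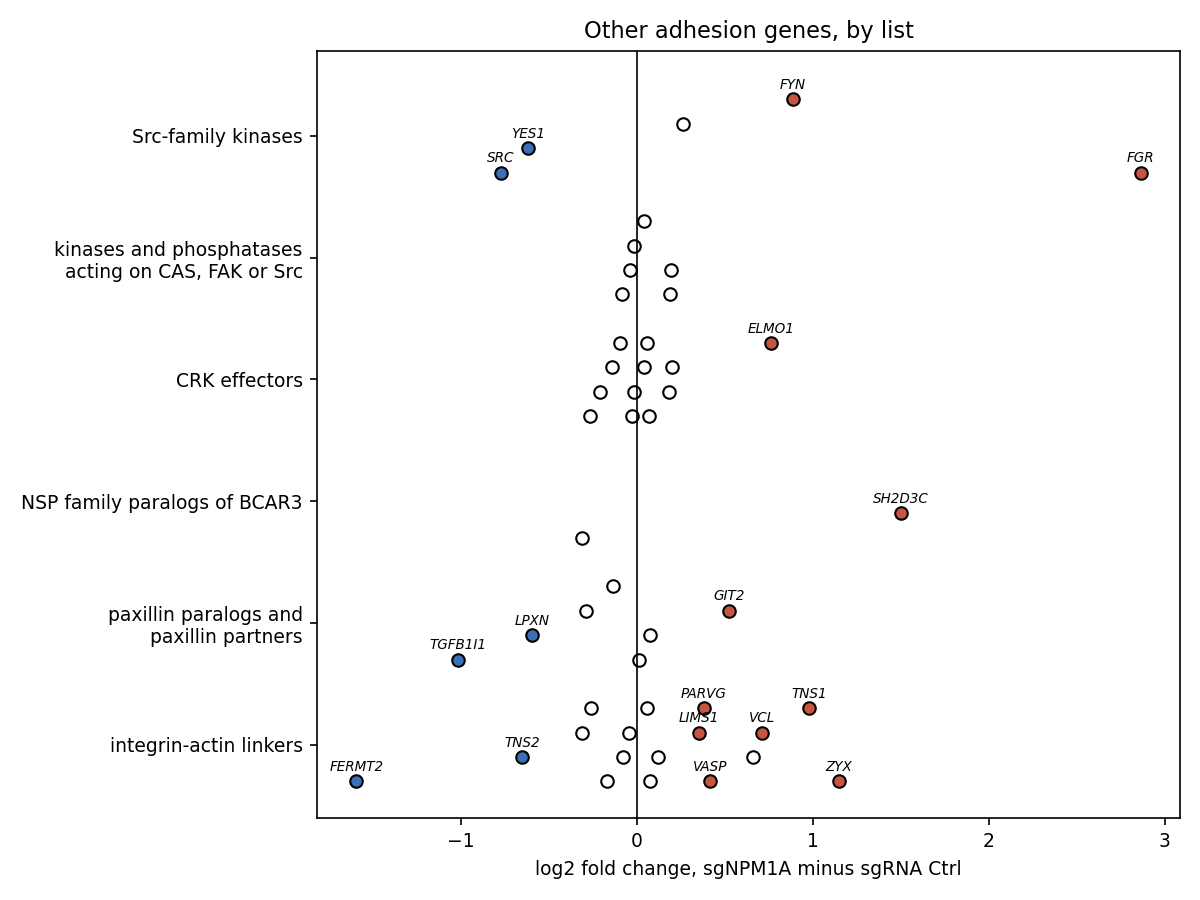
Log2 fold change, sgNPM1A minus sgRNA Ctrl, of the 49 tested genes of the 6 lists, 1 point a gene, with vertical offsets for legibility only. Red points were called higher and blue points lower, and both colors occur among the Src-family kinases, the paxillin genes and the integrin-actin linkers, with FGR (2.86) farthest to the right.

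Around BCAR1 on chromosome 16, the overlapping gene ENSG00000280152 described above was called lower with it (log2 fold change -2.96, SE 0.41, edgeR adjusted p = 0.000292). Its 35 and 31 control counts and 4 and 5 sgNPM1A counts may be reads of BCAR1 over 788 shared exon bases. They are thus no independent measure of ENSG00000280152. Of the genes that the RefSeq table places within 250 kb, which do not include that one, 7 were tested, and edgeR called 1 lower and 0 higher, where 10.3% of all tested genes were called lower and 10.5% higher. The count of higher genes was also 0 in DESeq2 and limma-trend and was 1, WDR59, at an unadjusted edgeR p under 0.05. ZNRF1, 117 kb away, fell from 16.5 and 16.4 CPM to 12.4 and 11.5 CPM (log2 fold change -0.47, SE 0.11, edgeR adjusted p = 0.00785), and did not pass without sgNPM1A replicate 2 (adjusted p = 0.0878). CFDP1, the nearest of the 7 at 25.7 kb, measured 0.02 on the log2 scale (adjusted p = 0.919). The others measured -0.53 (ZFP1, adjusted p = 0.0532), 0.24 (WDR59, 0.0739), -0.06 (TMEM170A, 0.616), 0.32 (CHST6, 0.591) and 0.03 (TMEM231P1, 0.976). ZFP1 passed without sgNPM1A replicate 2 (-0.84, adjusted p = 0.00315). CTRB1, which lies 3.26 kb from BCAR1, had 3 counts in each sgRNA Ctrl library and 0 in each sgNPM1A library, at or under the floor. The log2 fold changes of these 7 genes ran from -0.53 to 0.32, against -3.06 for BCAR1.

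The 5 genes with a pattern most like that of BCAR1 were found among 10180 tested genes whose mean reached 5 CPM, by the root mean square distance of centred log2 CPM over the 4 libraries. PID1, an adapter with a phosphotyrosine-binding domain, was nearest at a distance of 0.0518, with 78.2 and 81.3 CPM in the control and 11.9 and 8.14 CPM after mtNPM1 KO. ENSG00000253508 (0.0883), RTL3 (0.107), ART3 (0.163) and DDR2 (0.188) followed. DDR2, a collagen receptor kinase, measured 11.4 and 12.1 CPM with sgRNA Ctrl, and 2.19 and 1.33 CPM with sgNPM1A. All 5 were lower in the second sgNPM1A library than in the first, as BCAR1 was. They were chosen for closeness to BCAR1 in these same 4 libraries, so this shared order largely follows from the choice. By the same measure the tested paralogs and partners of BCAR1 lay at distances from 0.994 (CASS4) to 1.57 (PTK2B). BCAR1 was chosen for a large fall, so any gene with a small change lies far from it by construction. With 4 libraries such likeness is a description, and a gene that separates the conditions by a like amount would score close.

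**Figure D5:**
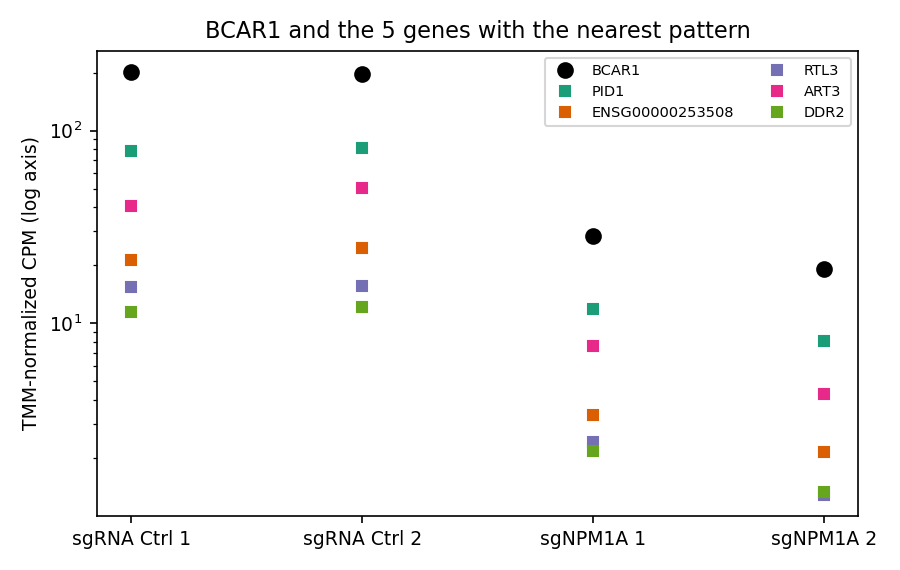
Level in TMM-normalized CPM on a log axis of BCAR1 (black circles) and the 5 genes with the smallest distance to it (squares) in each of the 4 libraries. Each gene is low in both sgNPM1A libraries and lower in the second than in the first, from PID1 (11.9 and 8.14 CPM) to DDR2 (2.19 and 1.33 CPM). The 5 genes were chosen by these same values, so the shared order largely follows from the choice.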

How the data were processed

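RNA-Seq of 4 OCI-AML3 libraries was used. The authors used STAR and Samtools for mapping, with hg38 as the build, and the deposited table holds unnormalized counts for each Ensembl gene. The counting program, annotation release and strand setting are not given in the sources used here. The groups follow the labels.

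edgeR 4.0.16 in R 4.3.3 was applied to the counts: filterByExpr with a minimum count of 10 (15718 of 58037 genes), TMM normalization, robust dispersions and a two-sided quasi-likelihood F test, Benjamini-Hochberg over all tested genes. A call needed an adjusted p under 0.05 and a 1.25-fold difference or more. Log2 values of single libraries used a prior count of 2. Symbols were found for 55603 genes by Ensembl identifier. Exon lengths and shared words came from GENCODE v44lift37 and positions from RefSeq on GRCh38.p14, so lengths and positions are of different builds.

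All members of the group were named, as were the called genes of each list, or, where over 4 were called, the 2 largest rises and falls with a mean of at least 1 CPM, the tested neighbours, the 5 nearest patterns and NPM1. The members, lists and rules were chosen with earlier results of these data known. Alternatives were DESeq2 1.42.0, limma-trend (limma 3.58.1) on quantile-normalized values, other normalizations and filters, other thresholds, a replicate block and each library left out. A gene of the planned lists is not reported here and was left out of their counts. ERCC scaling was not used. The total counts, 25069484 to 28276391 per library, limit the precision of genes with few counts, and 3 counts were taken as the floor. ChIP-Seq, QPCR and protein data were not analysed here.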

Additional observations from a re-analysis of the deposited data

How the results depend on the processing

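Over 8 genes and the settings run (DESeq2, limma-trend, 3 other normalizations, 2 other filters, both blocks, 3 other thresholds and each library left out), 112 values kept direction and side of the threshold, 11 were weaker, 1 was stronger and 4 were reversed, all 4 for uncalled genes. The 3 other thresholds reuse the log2 values of the main fit, so no direction could change under them. PTK2B turned to -0.024 under limma-trend and -0.0082 with library size only. Leaving out single libraries gave -0.0072 to 0.075 for PTK2B and -0.35 to 0.011 for NEDD9, both reversed without sgRNA Ctrl replicate 1. In these fits the genes other than BCAR1 called lower numbered 3 to 6, and the BCAR1 log2 fold change ran from -3.38 to -2.80. CRKL, at the edge of the fold threshold, was also not called under limma-trend, with at least 10 counts in every library and under both blocks, at -0.32 each time. A fold threshold of 2 left 1 of the 5 genes called lower, 2 of the 6 list genes called lower and 3 of the 11 called higher, by its construction. The neighbours called lower, examined under alternatives chosen after the data were seen, were 2 in place of 1 with library size only, without a filter, under the replicate block and under the crossed block, and the cause was not tested.

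Nothing in the labels links the same-numbered libraries of the 2 conditions. Their deviations correlated at -0.13 over tested genes, and with 2 libraries a condition this value cannot decide whether the libraries were paired. With the replicate block 4 of the 5 genes were called lower, without CRKL (adjusted p = 0.0162, fold just under the threshold), and 1637 genes were called higher and 1604 lower over all. With the numbers exchanged, chosen after the data were seen, these were 4, 1955 and 1918. Genes with few counts, such as BCAR3, FERMT2 and SH2D3C, are limited by depth.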
